A study of Rattus norvegicus with 5 samples.

Results

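The receptor genes for serotonin (Htr), dopamine (Drd), noradrenaline and adrenaline (Adra, Adrb), acetylcholine (muscarinic Chrm, nicotinic Chrna and Chrnb) and opioid peptides (Opr) were followed in rat hippocampus across 5 arrays. Members were the probe sets whose single gene symbol in the platform annotation began with one of these stems. This gave 72 probe sets of 48 genes, out of 8740 probe sets of which 7006 carried a single symbol. The symbol rule also took in Oprpn, which encodes a secreted opiorphin precursor and is no receptor. All samples were total RNA from hippocampus of rats labelled P5: 2 arrays of fetal alcohol exposed rats, 1 array of rats on an isocaloric diet, which serves as a feeding control, and 2 arrays of rats on the control diet. The labels give no strain, sex, alcohol dose or exposure period, and do not say whether a sample was 1 animal or a pool, so p-values measure only the spread between these samples, which may be technical.

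In background terms, these receptors read the transmitters that reach the hippocampus from distant nuclei: serotonin from the raphe, noradrenaline from the locus coeruleus, dopamine from the midbrain and acetylcholine from the septum. Most of them are receptors coupled to G proteins, which raise or lower cyclic AMP or activate phospholipase C. The nicotinic subunits and Htr3a instead form ion channels of several subunits. Receptors of both kinds are known to be present in the hippocampus while its circuits form.

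Promoter windows are shown for the 4 acetylcholine receptor genes with the smallest p-values between fetal alcohol and control diet, each measured higher on both fetal alcohol arrays. RefSeq (GRCr8) windows of 250 bases before to 50 bases after the annotated gene start were matched for 36 of the 48 genes. Both strands were searched for the GC box (GGGCGG), for the E box (CANNTG), for the TATA box (TATAAA) and for the cAMP response element (TGACGTCA). Capitals mark GC boxes in Chrm3 (chr17:64696677-64696976, plus strand), Chrna3 (chr8:64311202-64311501, minus strand) and Chrna7 (chr1:126249080-126249379, minus strand), and E boxes in Chrna1 (chr3:78877304-78877603, minus strand).
Chrm3: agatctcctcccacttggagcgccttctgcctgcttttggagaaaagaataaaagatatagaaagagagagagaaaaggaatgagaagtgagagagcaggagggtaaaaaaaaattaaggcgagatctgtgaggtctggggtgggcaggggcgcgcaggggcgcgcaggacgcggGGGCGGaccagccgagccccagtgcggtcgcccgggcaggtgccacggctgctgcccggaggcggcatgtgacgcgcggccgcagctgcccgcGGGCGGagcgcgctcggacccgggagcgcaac
Chrna3: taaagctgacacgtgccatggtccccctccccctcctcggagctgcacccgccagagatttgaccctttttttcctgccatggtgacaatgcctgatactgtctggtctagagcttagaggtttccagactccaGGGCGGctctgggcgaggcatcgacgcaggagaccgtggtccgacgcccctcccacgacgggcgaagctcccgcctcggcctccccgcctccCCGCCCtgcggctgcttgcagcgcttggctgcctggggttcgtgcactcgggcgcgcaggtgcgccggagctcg
Chrna7: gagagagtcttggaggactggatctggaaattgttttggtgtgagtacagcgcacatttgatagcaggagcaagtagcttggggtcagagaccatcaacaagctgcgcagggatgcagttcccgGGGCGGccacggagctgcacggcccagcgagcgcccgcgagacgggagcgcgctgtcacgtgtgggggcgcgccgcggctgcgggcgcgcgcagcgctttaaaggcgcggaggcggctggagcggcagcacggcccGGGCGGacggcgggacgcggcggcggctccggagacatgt
Chrna1: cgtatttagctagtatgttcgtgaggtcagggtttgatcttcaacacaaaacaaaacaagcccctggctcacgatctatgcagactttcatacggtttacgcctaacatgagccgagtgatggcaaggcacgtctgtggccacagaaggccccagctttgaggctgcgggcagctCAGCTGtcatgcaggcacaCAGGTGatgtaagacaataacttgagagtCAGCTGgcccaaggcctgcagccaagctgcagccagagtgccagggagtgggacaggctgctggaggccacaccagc
The first 3 windows each held 2 GC boxes and no TATA box, and the Chrna1 window held 3 E boxes and no GC box. E boxes, not capitalised there, also lay in the first 3 windows, with 4 in Chrm3, 2 in Chrna3 and 2 in Chrna7. Over all 33469 windows of this length, 33.1% held a GC box, 72.1% an E box, 14.2% a TATA box and 1.83% a cAMP response element. Among the 36 receptor windows, 20 held a GC box, 22 an E box, 2 a TATA box and 0 a cAMP response element. The windows differed in base content too, with a median of 63.2% G and C in receptor windows and 51.7% over all windows. The part of base content in the motif counts was not tested. A match of letters is a description of the window and not a shown binding site.

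Receptor signals were dim on these arrays. A total of 33 of the 72 probe sets, from 29 of the 48 genes, lay at or above the 40th percentile of mean log2 intensity and were tested. That is 45.8% of the receptor probe sets, against 62.5% of all probe sets with a single symbol. Above the filter stood 8 of 20 serotonin, 3 of 8 dopamine, 7 of 11 adrenergic, 6 of 9 muscarinic, 8 of 15 nicotinic and 1 of 9 opioid probe sets. The percentile describes how bright a probe set is, which depends on its probes as well as on the transcript, so it does not rank genes by expression. Drd3 and Chrm3 each had a probe set with a mean intensity over 150, and the other 31 tested probe sets measured between 23.9 and 150 on single arrays.

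**Figure D1:**
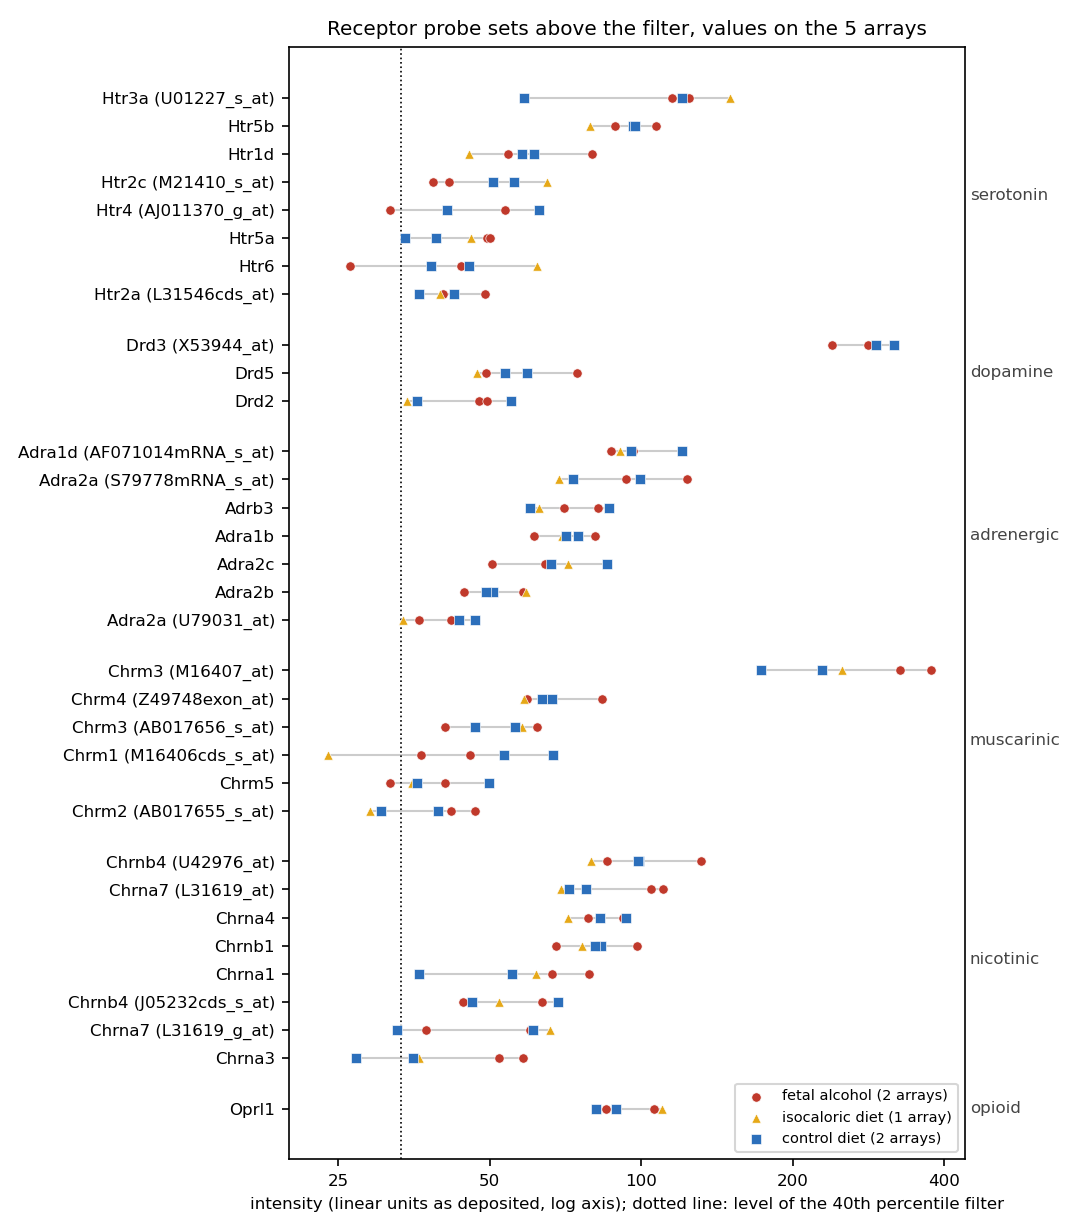
Intensity (linear units, log axis) of the 33 receptor probe sets above the filter on each array, by receptor class: circles fetal alcohol, triangles isocaloric diet, squares control diet, with a grey line over the range. Only the brighter probe sets of Drd3 and Chrm3 have a mean over 150, and for most others the symbols of the groups mingle.

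The 33 tested probe sets covered Htr1d, Htr2a, Htr2c, Htr3a, Htr4, Htr5a, Htr5b and Htr6 among serotonin receptors and Drd2, Drd3 and Drd5 among dopamine receptors. They covered Adra1b, Adra1d, Adra2a, Adra2b, Adra2c and Adrb3 among adrenergic receptors and all 5 muscarinic receptors, Chrm1 to Chrm5. The nicotinic subunits tested were Chrna1, Chrna3, Chrna4, Chrna7, Chrnb1 and Chrnb4, and the opioid class was represented by Oprl1, the nociceptin receptor. The remaining 19 genes had no probe set above the filter: Htr1a, Htr1b, Htr1f, Htr2b, Htr7, Drd1, Drd4, Adra1a, Adrb1, Chrna2, Chrna5, Chrna6, Chrna9, Chrnb2, Chrnb3, Oprd1, Oprk1, Oprm1 and Oprpn. Their probe sets and the dim probe sets of tested genes measured between 1.91 and 49.3. Chrm2 (AB017655_s_at), at percentile 42.1, was the member just inside the filter, and Drd1 (S46131mRNA_s_at), at percentile 39.3, the member just outside it.

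Several receptors with well known hippocampal roles lay under the filter. For Htr1a, Htr1b and Htr1f, and for Oprpn, which is no receptor, every probe set was under the log offset on all 5 arrays. That offset was 10.6, the 20th percentile of all values. Htr1a, the inhibitory serotonin receptor of pyramidal cells, measured 8.29 and 6.34 after fetal alcohol, 4.34 in the isocaloric sample, and 5.99 and 7.21 under control diet. Adrb1, a beta adrenergic receptor that raises cyclic AMP, measured 17.2 and 14.3 after fetal alcohol, 13.8 in the isocaloric sample, and 16.1 and 15.3 under control diet. Such values bound what these probes could show and do not show that the transcripts were absent. Chrnb2, the beta subunit that joins Chrna4 in the main brain nicotinic receptor, measured 7.07 and 19.5 after fetal alcohol, 15.0 in the isocaloric sample, and 26.4 and 30.2 under control diet. Both Chrnb2 values of fetal alcohol lay below both of control diet, at intensities under the filter.

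Probe sets of the same gene often disagreed in brightness. A total of 17 genes had more than 1 probe set, 41 in all, and in 11 of these genes the filter kept some and dropped others. The ratio of the brightest to the dimmest mean intensity within a gene ranged from 1.37 for Chrm2 to 71.8 for Drd3, with a median of 5.14. Drd3 (X53944_at), a dopamine receptor that lowers cyclic AMP, measured 240 and 282 after fetal alcohol, 292 in the isocaloric sample, and 293 and 317 under control diet. The second Drd3 probe set (A17753cds_s_at) measured between 2.26 and 6.03 on the 5 arrays. The probe set with the highest mean intensity of the family and a very dim one thus carry the same gene name, and no Drd3 level follows from them.

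**Figure D2:**
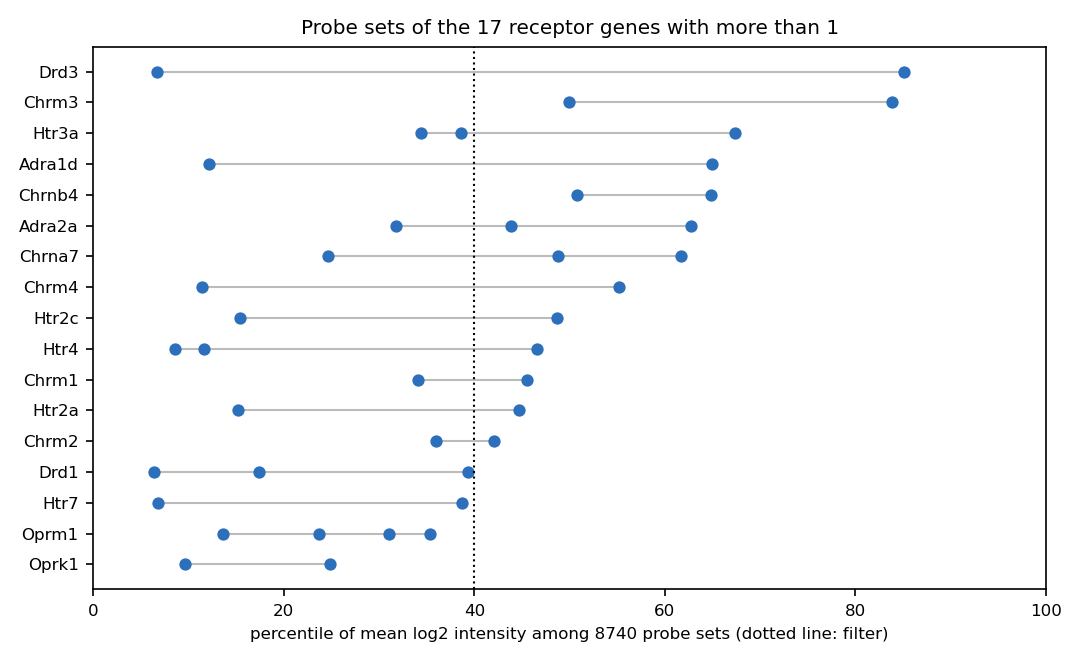
Percentile of mean log2 intensity (x axis) of every probe set (points) of the 17 receptor genes with more than 1, with a grey line joining probe sets of a gene and a dotted line at the 40th percentile. In 11 genes the points fall on both sides of the dotted line, and Drd3 spans from percentile 6.68 to 85.1.

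Fetal alcohol was first set against control diet, with 2 arrays on each side. No receptor probe set passed the limma threshold (adjusted p under 0.05), as was true of all 5244 tested probe sets (0 called, 0%). At an unadjusted p under 0.05 there were 2 of 33 receptor probe sets (6.06%), against 5.61% of all tested. Both were higher, as were 1.66% of all tested, and these 2 were also the receptor probe sets at least 1.5-fold apart, against 6.37% of all tested. The median log2 difference of the 33 was 0.06, against 0.0049 over all tested, with 19 of 33 positive, against 50.5% of all tested. Without fetal alcohol array 1 the median was -0.03 and without fetal alcohol array 2 it was 0.16, so its sign rested on which fetal alcohol array was kept. In 18 of 33 probe sets the difference changed sign when some single array was left out, among them those of Htr6, Htr4, Drd5 and Chrnb4. That share was not computed over all tested, so it is not particular to receptors. The fetal alcohol arrays did not overlap the control diet arrays in 11 of 33 probe sets, near the 34.5% of all tested, with 6 higher (16.8% of all tested) and 5 lower (17.7% of all tested).

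**Figure D3:**
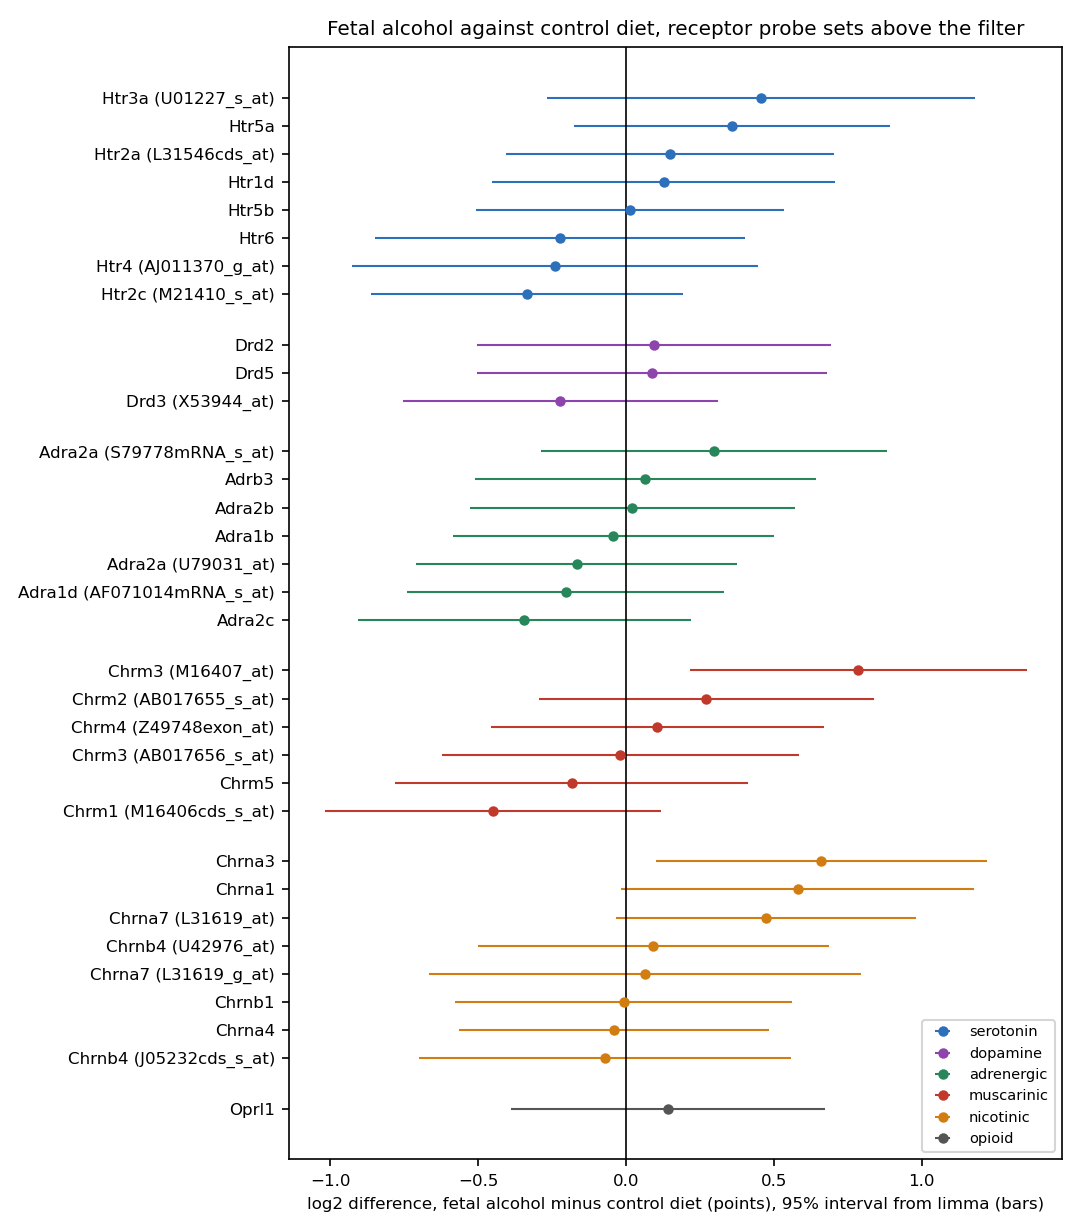
Log2 difference, fetal alcohol minus control diet (points), with its 95% interval from limma (bars), for the 33 tested receptor probe sets by class. The intervals of Chrm3 (M16407_at) and Chrna3 lie above 0, and those of the other 31 span 0.

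Among muscarinic receptors, Chrm3 had the largest difference. Chrm3 (M16407_at), which activates phospholipase C through Gq, measured 376 and 327 after fetal alcohol, 251 in the isocaloric sample, and 229 and 173 under control diet. Both fetal alcohol values were above all others, with the isocaloric array between. Means were 352 ± 35.0 for fetal alcohol and 201 ± 39.5 for control diet (SD, n = 2 arrays each), and the log2 difference was 0.79 ± 0.25 (SE, 95% interval 0.22 to 1.36). Dropping single arrays moved it between 0.59 and 0.98, and its limma adjusted p was 0.682, and 0.154 to 0.9997 under the alternatives. The second Chrm3 probe set (AB017656_s_at) measured 40.7 and 62.1 after fetal alcohol, 58.0 in the isocaloric sample, and 56.2 and 46.7 under control diet. There the groups overlapped and the log2 difference was -0.02 ± 0.26, so the probe sets of this gene did not show the same difference.

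Chrm1 differed the other way. Chrm1 (M16406cds_s_at), the Gq-coupled muscarinic receptor best known from forebrain pyramidal cells, measured 36.5 and 45.7 after fetal alcohol, 23.9 in the isocaloric sample, and 53.3 and 66.8 under control diet. The control diet arrays were the highest and the isocaloric array the lowest. The log2 difference of fetal alcohol from control diet was -0.45 ± 0.25 (95% interval -1.02 to 0.12, limma adjusted p = 0.922). A dimmer Chrm1 probe set (AJ006522mRNA_at) measured 30.3 and 21.6 after fetal alcohol, 17.5 in the isocaloric sample, and 33.8 and 23.1 under control diet, where the groups overlapped and the isocaloric array was again lowest.

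Chrm2 and Chrm4 couple to Gi and lower cyclic AMP. Chrm2 (AB017655_s_at) measured 46.7 and 41.8 after fetal alcohol, 29.0 in the isocaloric sample, and 30.5 and 39.5 under control diet, a log2 difference from control diet of 0.27 ± 0.25 (limma adjusted p = 0.965). Its second probe set (J03025_at) measured 21.0 and 31.9 after fetal alcohol, 29.5 in the isocaloric sample, and 30.05 and 24.8 under control diet, with the groups overlapping. Chrm4 (Z49748exon_at) measured 83.6 and 59.4 after fetal alcohol, 58.4 in the isocaloric sample, and 66.4 and 63.4 under control diet, a difference of 0.11 ± 0.25. The control diet values of Chrm4 lay inside the range of the fetal alcohol values, and its second probe set (M16409_at) stayed between 3.21 and 8.43. Chrm5 (M22926mRNA_at), the remaining Gq-coupled type, had a log2 difference of -0.18 ± 0.26.

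Among the 8 tested nicotinic probe sets, 3 were higher on both fetal alcohol arrays than on either control diet array, against 16.8% of all tested. Chrna3 (L31621_s_at), the alpha subunit of ganglionic nicotinic receptors, measured 58.3 and 52.2 after fetal alcohol, 36.2 in the isocaloric sample, and 35.3 and 27.2 under control diet. The isocaloric array lay just above the control diet arrays and well below those of fetal alcohol. Means were 55.3 ± 4.33 for fetal alcohol and 31.2 ± 5.73 for control diet (SD, n = 2 arrays each), a log2 difference of 0.66 ± 0.24 (SE, 95% interval 0.10 to 1.22). Its limma adjusted p was 0.788, and 0.252 to 0.9997 under the alternatives.

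Chrna7 forms homomeric channels with high calcium permeability and is abundant in hippocampus. Chrna7 (L31619_at) measured 105 and 111 after fetal alcohol, 69.3 in the isocaloric sample, and 77.6 and 71.7 under control diet. The 3 arrays without alcohol lay close together and below both fetal alcohol arrays. The log2 difference from control diet was 0.47 ± 0.22 (95% interval -0.03 to 0.98, limma adjusted p = 0.909), and dropping single arrays moved it between 0.42 and 0.52.

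Other Chrna7 probe sets did not repeat this separation. Probe set L31619_g_at, from the same sequence record, measured 60.01 and 37.3 after fetal alcohol, 66.0 in the isocaloric sample, and 32.7 and 60.9 under control diet, a log2 difference of 0.06 ± 0.32. Probe set S53987_at, under the filter, measured 13.8 and 17.2 after fetal alcohol, 17.6 in the isocaloric sample, and 11.9 and 13.6 under control diet. In L31619_g_at the values overlapped, and in S53987_at the fetal alcohol arrays were the higher ones while the isocaloric array was highest.

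Chrna1, the alpha subunit of the muscle receptor, was the third. Chrna1 (X74832cds_at) measured 78.9 and 66.6 after fetal alcohol, 61.8 in the isocaloric sample, and 55.4 and 36.2 under control diet. Control diet array 2 was the lowest and the isocaloric array sat between the groups. The log2 difference of fetal alcohol from control diet was 0.58 ± 0.26 (95% interval -0.02 to 1.18, limma adjusted p = 0.909), and was 0.83 without control diet array 1 and 0.33 without control diet array 2. Chrnb1, the beta subunit of the same muscle receptor, had a difference of -0.01 ± 0.25.

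In GRCr8, Chrna5, Chrna3 and Chrnb4 lie next to each other on chromosome 8 with no protein-coding gene between them. Chrnb4, a beta subunit that pairs with Chrna3, measured 131 and 85.4 after fetal alcohol, 79.5 in the isocaloric sample, and 99.0 and 98.7 under control diet at U42976_at, a log2 difference of 0.09 ± 0.26. At J05232cds_s_at Chrnb4 gave 44.3 and 63.4 after fetal alcohol, 52.1 in the isocaloric sample, and 68.4 and 46.1 under control diet, a difference of -0.07 ± 0.28. At both probe sets the groups overlapped, unlike at Chrna3. Chrna5, an accessory subunit under the filter, measured 17.2 and 27.9 after fetal alcohol, 19.8 in the isocaloric sample, and 22.8 and 12.0 under control diet, also with overlap. Chrnb3 (J04636_at), under the filter too, measured 21.4 and 22.4 after fetal alcohol, 17.3 in the isocaloric sample, and 13.9 and 11.4 under control diet, with no overlap. Chrna4, the usual partner of Chrnb2, had a log2 difference of -0.04 ± 0.23. Over the 8 tested nicotinic probe sets, 5 differences were positive and the median was 0.08, against -0.001 without fetal alcohol array 1 and 0.36 without fetal alcohol array 2.

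**Figure D4:**
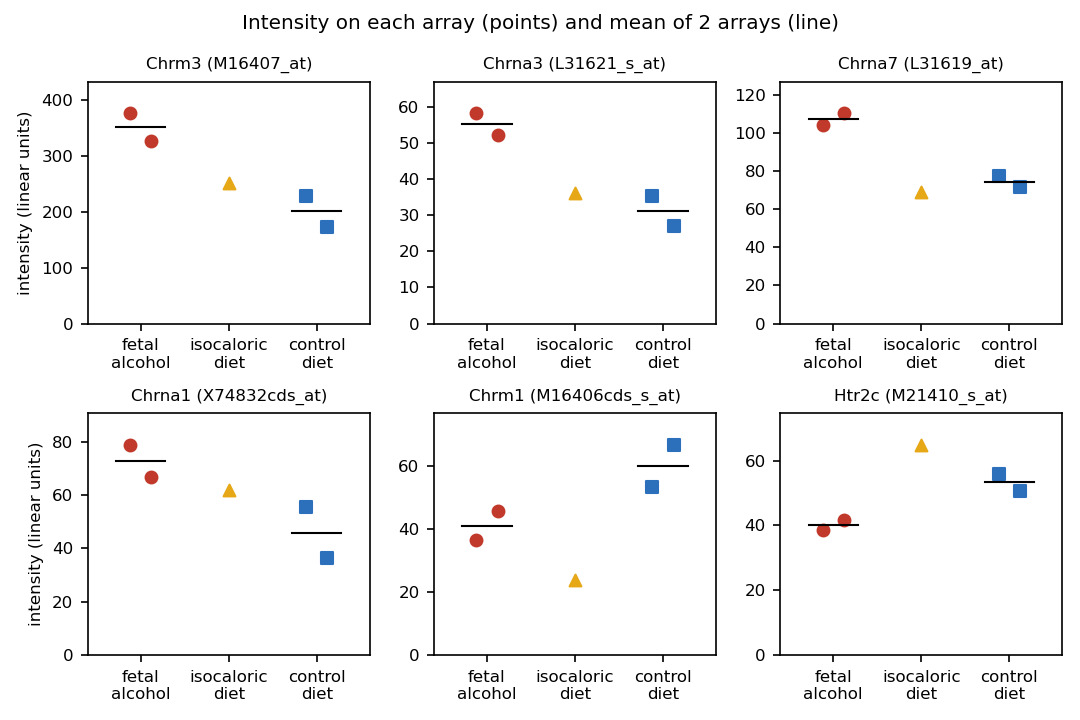
Intensity (linear units) on each array for 6 receptor probe sets, with fetal alcohol, isocaloric diet and control diet from left to right and lines at the mean of 2 arrays. Chrm3, Chrna3, Chrna7 and Chrna1 are higher on both fetal alcohol arrays than on the other 3, Chrm1 is lowest on the isocaloric array (23.9) and Htr2c is highest there (65.0).

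Among the 8 tested serotonin probe sets, those of Htr2c and Htr5a showed no overlap between fetal alcohol and control diet, against 34.5% of all tested. Htr2c (M21410_s_at), a Gq-coupled receptor known for its high level in the choroid plexus, measured 38.5 and 41.6 after fetal alcohol, 65.0 in the isocaloric sample, and 55.9 and 50.7 under control diet. Its log2 difference from control diet was -0.34 ± 0.23 (95% interval -0.86 to 0.19, limma adjusted p = 0.961). The second Htr2c probe set (U35315_at) measured 4.66 and 5.60 after fetal alcohol, 22.7 in the isocaloric sample, and 6.41 and 5.37 under control diet. At both probe sets the isocaloric array was the highest.

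The choroid plexus marker list, taken as a sum, had the same order of groups. Its 8 genes measured on the arrays summed to 2633 and 1192 after fetal alcohol, 7731 in the isocaloric sample, and 6977 and 7142 under control diet, and 0 of the 8 was under the offset on every array. Ttr, its most abundant gene, measured 1004 and 69.2 after fetal alcohol, 5391 in the isocaloric sample, and 5297 and 4886 under control diet. Both fetal alcohol arrays were below both control diet arrays for 5 of the 8 genes, not for Igfbp2, Kl and Prlr, and 6 of the 8 were highest on the isocaloric array, where Prlr was lowest. The part of choroid plexus tissue in the Htr2c values was not tested, and in whole tissue fewer cells of a type and less RNA per cell cannot be told apart.

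Htr5a and Htr5b encode related serotonin receptors. Htr5a (L10072_at) measured 49.3 and 50.1 after fetal alcohol, 45.9 in the isocaloric sample, and 39.1 and 33.9 under control diet. Fetal alcohol values were highest and close to each other, and the log2 difference from control diet was 0.36 ± 0.23 (limma adjusted p = 0.961). Htr5b (L10073_at) measured 107 and 88.7 after fetal alcohol, 79.1 in the isocaloric sample, and 96.2 and 97.0 under control diet, a difference of 0.01 ± 0.23 with overlapping groups.

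Htr3a, the subunit of the serotonin-gated ion channel of interneurons, depended on 1 control diet array. Htr3a (U01227_s_at) measured 124 and 115 after fetal alcohol, 150 in the isocaloric sample, and 58.6 and 120 under control diet. Control diet array 1 stood alone below the other 4. The log2 difference from control diet was 0.45 ± 0.32 (limma adjusted p = 0.961) and -0.01 without that array. A dimmer probe set (D49395_s_at) measured 27.9 and 26.2 after fetal alcohol, 30.3 in the isocaloric sample, and 33.7 and 39.3 under control diet, here with both fetal alcohol values the lower ones. The third (U59672_at) measured 18.2 and 27.2 after fetal alcohol, 34.2 in the isocaloric sample, and 18.2 and 31.7 under control diet.

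Htr6, which raises cyclic AMP, measured 26.4 and 43.8 after fetal alcohol, 62.1 in the isocaloric sample, and 38.3 and 45.5 under control diet. Fetal alcohol array 1 was the lowest and the isocaloric array the highest, and the log2 difference from control diet was -0.22 ± 0.27. Of the other serotonin receptors, Htr1d had 0.13 ± 0.25, Htr2a 0.15 ± 0.24 and Htr4 -0.24 ± 0.30. Htr7 (L22558_at), which raises cyclic AMP and lay under the filter, measured 39.5 and 35.4 after fetal alcohol, 36.7 in the isocaloric sample, and 17.7 and 31.8 under control diet, with no overlap. The second Htr7 probe set (U68491_at) stayed between 3.60 and 4.29, with the groups overlapping. The median over the 8 tested serotonin probe sets was 0.07, with 5 positive, against 0.0083 without control diet array 1 and 0.20 without fetal alcohol array 2.

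Adrenergic receptors differed little. Adra2a and Adra2c, which lower cyclic AMP and act on noradrenaline release, gave opposite signs. Adra2c (X57659_at) measured 50.6 and 64.4 after fetal alcohol, 71.7 in the isocaloric sample, and 66.3 and 85.6 under control diet, a log2 difference from control diet of -0.34 ± 0.25 (limma adjusted p = 0.963). Adra2a (S79778mRNA_s_at) measured 123 and 93.2 after fetal alcohol, 68.6 in the isocaloric sample, and 99.3 and 73.1 under control diet, a difference of 0.30 ± 0.26 (limma adjusted p = 0.965). For Adra2c fetal alcohol lay below control diet without overlap, while for Adra2a the groups overlapped.

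The other Adra2a probe sets went the other way or varied more. Adra2a U79031_at measured 41.8 and 36.2 after fetal alcohol, 33.6 in the isocaloric sample, and 43.4 and 46.8 under control diet, a log2 difference of -0.17 ± 0.24 with no overlap. The Adra2a probe set M62372cds_s_at, under the filter, measured 10.8 and 34.4 after fetal alcohol, 12.8 in the isocaloric sample, and 26.2 and 32.4 under control diet. No direction can be given for this gene from probe sets that disagree. Adra1d (AF071014mRNA_s_at), a Gq-coupled receptor, measured 87.2 and 96.5 after fetal alcohol, 90.8 in the isocaloric sample, and 95.4 and 121 under control diet, a difference of -0.20 ± 0.23. Its second probe set (M60654_at) stayed between 3.75 and 9.43. Adra1b had -0.04 ± 0.24, Adra2b 0.02 ± 0.24 and Adrb3 0.07 ± 0.25.

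Dopamine and opioid receptors had few readings above the filter. Drd3 at its bright probe set differed from control diet by a log2 value of -0.22 ± 0.23 (limma adjusted p = 0.965), with both fetal alcohol values below both control diet values. Drd5, which raises cyclic AMP and is known in hippocampus, measured 74.5 and 49.2 after fetal alcohol, 47.3 in the isocaloric sample, and 59.4 and 53.7 under control diet, a difference of 0.09 ± 0.26 with overlapping groups. Drd2, a receptor of striatal neurons and dopamine cells, had 0.10 ± 0.26.

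Oprl1 measured 85.2 and 106 after fetal alcohol, 110 in the isocaloric sample, and 89.2 and 81.3 under control diet, a log2 difference from control diet of 0.14 ± 0.23 with overlapping groups. Oprm1, the mu receptor for enkephalin, endorphin and morphine, was under the filter at all 4 probe sets. Its brightest (S79903mRNA_at) measured 18.9 and 28.3 after fetal alcohol, 16.6 in the isocaloric sample, and 33.0 and 40.3 under control diet. S77863_s_at measured 21.6 and 22.9 after fetal alcohol, 11.5 in the isocaloric sample, and 28.3 and 23.4 under control diet. At both of these Oprm1 probe sets the control diet arrays were highest and the isocaloric array lowest. The other 2 Oprm1 probe sets stayed between 6.56 and 16.6, and there both fetal alcohol values lay above both control diet values. No direction can be given for Oprm1 from probe sets that disagree. With the filter dropped, so that all 72 receptor probe sets were tested, 0 passed in any of the 3 comparisons.

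Set against the single isocaloric array, the feeding control, the fetal alcohol arrays again gave no call. None of the 33 receptor probe sets passed (limma adjusted p = 0.998 for each, 0% of all tested called), and 0 had an unadjusted p under 0.05, against 4.21% of all tested in either direction and 2.67% higher. Only 1 receptor probe set, that of Htr6, was at least 1.5-fold apart, against 9.27% of all tested. The median log2 difference was 0.13, against -0.0029 over all tested, with 24 of 33 positive, against 49.7% of all tested. Chrna7 (L31619_at) had a log2 difference of 0.56 ± 0.27 (SE, 95% interval -0.06 to 1.19), Chrm1 (M16406cds_s_at) 0.58 ± 0.30, Adra2a (S79778mRNA_s_at) 0.57 ± 0.31 and Chrna3 0.49 ± 0.30. Htr6 had -0.70 ± 0.33 and Htr2c (M21410_s_at) -0.58 ± 0.28. For each of these 6, both fetal alcohol values lay on the same side of the isocaloric value, which their choice by smallest p favours. Over all 33, the isocaloric array lay below both fetal alcohol arrays for 18 (31.5% of all tested) and above both for 8. For the latter the share over all tested was not computed, so the 2 counts cannot be weighed against each other. Chrm1 (M16406cds_s_at) stood above the isocaloric array and below the control diet arrays after fetal alcohol, so its sign depended on which diet it was set against. Of the 8 nicotinic probe sets 7 were positive (median 0.21), and of the 6 muscarinic probe sets 5 were positive (median 0.35). Without fetal alcohol array 1 these medians were 0.10 and 0.23, and without fetal alcohol array 2 they were 0.32 and 0.45. Dopamine probe sets had a median of 0.30 (2 of 3 positive), and 0.05 without fetal alcohol array 1. Medians were 0.05 for serotonin (5 of 8 positive) and 0.01 for adrenergic probe sets (5 of 7 positive).

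The comparison of isocaloric with control diet concerned the feeding control itself, 1 array against 2, and shares its arrays with the comparisons above. Again 0 of 33 receptor probe sets passed (0% of all tested called), and 1 had an unadjusted p under 0.05, against 6.81% of all tested, and 0 of them higher, against 1.37%. Past 1.5-fold were 2 of 33, Chrm1 and Htr3a, against 12.6% of all tested. The 1 with the small p was Chrm1 (M16406cds_s_at), with a log2 difference of -1.03 ± 0.30 (SE, 95% interval -1.72 to -0.33, limma adjusted p = 0.56), the largest of the receptor differences in any of the 3 comparisons. Dropping single arrays moved it between -1.16 and -0.89. Htr3a (U01227_s_at) had 0.76 ± 0.39, and 0.30 without control diet array 1. Htr6 had 0.47 ± 0.33, Chrna1 0.38 ± 0.32, Chrna7 (L31619_g_at) 0.46 ± 0.39 and Oprl1 0.33 ± 0.28. The isocaloric array lay outside both control diet arrays for 28 of 33 probe sets, against 75.8% of all tested, below them for 17 (37.5% of all tested) and above them for 11 (38.3% of all tested). The median log2 difference was -0.09, against 0.02 over all tested, with 12 of 33 positive, against 51.4% of all tested. It was -0.05 without control diet array 2. Adrenergic probe sets were negative in 6 of 7 (median -0.18) and dopamine probe sets in 3 of 3 (median -0.21). Without control diet array 2 these medians were -0.06 and -0.05, and without control diet array 1 they were -0.09 and -0.15. Muscarinic probe sets were negative in 4 of 6 (median -0.16) and nicotinic in 5 of 8 (median -0.09). Serotonin probe sets went the other way, with 5 of 8 positive (median 0.13).

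The median absolute log2 difference between the 2 fetal alcohol arrays was 0.26 over the 33 receptor probe sets, against 0.30 over all tested. Between the 2 control diet arrays it was 0.20, against 0.20 over all tested. The standard error of the fetal alcohol to control diet difference was between 0.22 and 0.32 for receptor probe sets.

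Genes that make, move and break down the transmitters, and those that carry the receptor signal, also gave 0 calls in each comparison (limma adjusted p under 0.05). At an unadjusted p under 0.05 between fetal alcohol and control diet stood 1 of 13 synthesis genes (Slc22a2), 1 of 17 G protein genes (Gna12) and 1 of 9 regulators (Grk2), all lower after fetal alcohol, and 0 of the opioid peptide and effector lists, against 5.61% of all tested. Slc22a2, Gna12 and Grk2 were also lower on the isocaloric array than on both control diet arrays. Of the genes for monoamine and acetylcholine synthesis, transport and breakdown 13 were tested, with a median log2 difference of fetal alcohol from control diet of 0.01 and 7 positive. Maoa, which breaks down serotonin and noradrenaline, measured 99.1 and 168 after fetal alcohol, 117 in the isocaloric sample, and 80.7 and 83.0 under control diet, a difference of 0.60 ± 0.28 (limma adjusted p = 0.909). Slc22a2, a low-affinity monoamine transporter, measured 36.2 and 47.8 after fetal alcohol, 48.9 in the isocaloric sample, and 72.0 and 73.3 under control diet. Its fetal alcohol difference was -0.67 ± 0.24, and that of Gch1, which makes the cofactor for monoamine synthesis, was -0.61 ± 0.38.

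Of opioid peptide and processing genes 8 were tested, with a median of 0.01 and 5 positive. Pdyn, the dynorphin precursor, measured 768 and 550 after fetal alcohol, 554 in the isocaloric sample, and 560 and 599 under control diet, a log2 difference from control diet of 0.16 ± 0.25 with overlapping groups. Pnoc, the precursor of the Oprl1 ligand nociceptin, had -0.28 ± 0.26.

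Of G protein subunits 17 were tested, with a median of -0.0044 and 8 positive, of effectors and kinases 14, with a median of 0.08 and 8 positive, and of receptor regulators 9, with a median of -0.10 and 3 positive. Grk2, the kinase that desensitises activated receptors, measured 164 and 255 after fetal alcohol, 250 in the isocaloric sample, and 388 and 365 under control diet. The fetal alcohol and isocaloric arrays all lay below both control diet arrays, and the fetal alcohol difference was -0.85 ± 0.27 (limma adjusted p = 0.682). Gna12, a G protein alpha subunit, measured 191 and 185 after fetal alcohol, 174 in the isocaloric sample, and 278 and 280 under control diet. Its difference from control diet was -0.54 ± 0.23 after fetal alcohol and -0.65 ± 0.28 for the isocaloric sample. Gnai2, which carries inhibitory coupling, had a fetal alcohol difference of 0.43 ± 0.22.

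Of 6 excitatory neuron markers 4 were above the filter, led by Nrgn, and Slc17a7, the vesicular glutamate transporter, was under the offset on all 5 arrays. Their sum was 2492 and 2296 after fetal alcohol, 1875 in the isocaloric sample, and 2111 and 2058 under control diet. Without Nrgn the sum was 331 and 576 after fetal alcohol, 402 in the isocaloric sample, and 574 and 512 under control diet, so the order of the groups in the full sum rested on Nrgn. Neuron markers summed to between 3993 and 4873 and interneuron markers to between 2523 and 3064 over the 5 arrays. Markers of neighbouring regions summed to 458 and 532 after fetal alcohol, 399 in the isocaloric sample, and 390 and 411 under control diet, with Dbh, the noradrenaline-making enzyme, under the offset on every array. This list includes Drd1 and Drd2, which are receptor members too. Its Tac1 measured 109 and 215 after fetal alcohol, 100 in the isocaloric sample, and 100 and 93.0 under control diet. The sum on fetal alcohol array 2 thus rested largely on Tac1. Tac1, Dbh and Drd1 (S46131mRNA_s_at, under the filter) were higher on both fetal alcohol arrays than on both control diet arrays. The other Drd1 probe sets overlapped, as did Penk, Adora2a, Th, Drd2 and Chat. Meninges markers summed to 2944 and 1719 after fetal alcohol, 2739 in the isocaloric sample, and 2711 and 3809 under control diet. The part of these in receptor values was not tested.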

How the data were processed

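Total RNA of 5 hippocampus samples was measured on 1 single-colour array each. Per the labels, 2 were fetal alcohol exposed, 1 was on an isocaloric diet and 2 were on a control diet. The deposited values are linear intensities, 1 for each of 8799 probe sets; the sources used here name neither software nor scaling. Column means trimmed at 2% lay between 150.19 and 150.22, so the intensities were used as deposited. The number of arrays limits precision.

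The 59 control probe sets were left out. Intensities became log2(intensity + 10.6), the offset being the 20th percentile, which understates differences of dim probe sets. The 5244 probe sets at or above the 40th percentile of mean log2 value entered 1 model in limma (version 3.58.1, under R version 4.3.3) that let the prior variance follow intensity, 2-sided, with Benjamini-Hochberg adjustment over all of them and 0.05 as the threshold. Residual degrees of freedom were 2 and prior ones 6.30. The script was tested on simulated data; the isocaloric array was assumed to vary like the others. Genes were named from probe sets with 1 symbol in the platform annotation (308 had several and 1426 none). Receptor genes, companion lists and markers were chosen with earlier results of these data known, and brightest probe sets stood for genes in lists. Array values are given for the 12 receptor probe sets with the smallest p between fetal alcohol and control diet, the 6 in each other comparison, the 2 brightest of each class, and other probe sets of those genes. Values of Htr1a, Adrb1, Chrnb2, Chrna5, Chrnb3 and Htr7, all under the filter, were added outside this rule. Of the 39 receptor probe sets under the filter, fetal alcohol lay above control diet without overlap at 8 and below it at 6. The share over all probe sets under the filter was not computed. Alternatives changed the offset, filter, scaling, trend, arrays and replicate block.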

Additional observations from a re-analysis of the deposited data

How the results depend on the processing

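No receptor probe set passed the threshold under any alternative tried in the 3 comparisons (other offsets, filters and scalings, no trend, 1 array left out, and for fetal alcohol against control diet the 4 arrays alone and the replicate blocks). The smallest adjusted p of the 33 receptor probe sets under any of them was 0.154 for fetal alcohol against control diet. It was 0.194 when fetal alcohol was set against the isocaloric array and 0.147 for the isocaloric array against control diet. Among the receptor probe sets with the smallest p, whose choice favours a steady sign, 296 of 297 recomputed differences kept it. Many of them could not change, since another filter, trend or block, or leaving out an array of neither group, returns the same difference. The exception was Htr3a (U01227_s_at) for fetal alcohol against control diet, with -0.0053 without control diet array 1 and 0.92 without control diet array 2. Over all 33, the sign changed with some single array left out for 18 in that comparison, 7 for fetal alcohol against the isocaloric array and 5 for the isocaloric array against control diet. The matching shares over all tested were not computed. Over all tested probe sets the count of calls for fetal alcohol against control diet was 0, and became 1 with an offset of 50, 1 under quantile normalization, 9 under equal medians and 8 with the replicate number as a block. With 1 array left out it ran from 0 to 25. The correlation of same-numbered arrays' deviations from their group means was -0.113, from 1 pair, so the numbers were not used as pairs, and a block with the numbers crossed, chosen after seeing the data, gave 21 calls. Fetal alcohol against isocaloric diet gave 1 call with an offset of 50, 3 under quantile normalization, 3 under equal medians and 0 to 12 with 1 array left out. Isocaloric against control diet gave 0 to 13 with 1 array left out. The receptor median for fetal alcohol against control diet ran from -0.034 to 0.16 with 1 array left out. Against isocaloric diet it was 0.22 with the filter at the 60th percentile and ran from 0.091 to 0.25 with 1 array left out. The median for isocaloric against control diet ran from -0.092 to -0.054 with 1 array left out and was -0.038 under equal medians. The cause of these changes was not tested. Low intensity limits what can be read from the 39 receptor probe sets under the filter, and background signal was not measured.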
